A study of Mus musculus with 108 samples.

Results

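Heat shock proteins and chaperonins were examined in single cells of cultured mouse germline stem cells. The genes were those whose symbol in the deposited table starts with Hsp, with Dnaj or with Cct and a digit, leaving out Hspg2, which encodes the matrix proteoglycan perlecan. That rule took 83 of 26218 genes. It also catches 3 genes that are not heat shock proteins by function: Hspbp1, a nucleotide exchange factor of Hsp70, Hspbap1, a partner protein of the small heat shock proteins, and Hspb11, a subunit of the transport particle of cilia. The cells came from 4 culture lines. GSCLC1 (30 cells) and GSCLC4 (24 cells) are lines of germline stem cell-like cells, grown from pluripotent stem cells by way of reconstituted testes, and GSC1 (30 cells) and GSC2 (24 cells) are lines of germline stem cells, the cultured form of spermatogonial stem cells. Per the labels' protocols, GSCLC4 came from reconstituted testes held at 34 °C for 3 weeks, and GSC2 from a separate set of testes of postnatal day 7; no such note is given for GSCLC1 or GSC1. Every line had the background 129/SvJcl x C57BL/6 and carried the reporter AcrAct_EGFP, and all were grown in StemPro-34 medium with GDNF, bFGF, LIF and EGF. The cells were brought into suspension with trypsin and EDTA for about 4 min at 37 °C before lysis, so no cell was measured without that step. Each line is 1 culture, and its cells are not replicates of a condition, so GSCLC and GSC were compared over 2 lines against 2.

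Chaperones hold or refold proteins that have not reached their final shape. Hsp70 proteins bind short exposed stretches of a chain in a cycle driven by ATP, J-domain proteins (the Dnaja, Dnajb and Dnajc families, also called Hsp40) bring the chain and start that cycle, and proteins of the Hsp110 group reset it by exchanging the nucleotide. Hsp90 acts later, on kinases, receptors and other partly folded clients. Chaperonins are closed chambers: Hspd1 with its lid Hspe1 in mitochondria, and in the cytosol the CCT ring, which folds actin and tubulin and takes a different subunit at each place. Several of these genes exist as pairs, a constitutive form that is always made and a stress-inducible form switched on by the heat shock factor Hsf1, which binds repeats of GAA. The testis has forms of its own that appear during meiosis and in spermatids, and male mice that lack Hspa2 stop in meiosis.

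The upstream sequences of the inducible Hsp70 pair, Hspa1a and Hspa1b, and of Hspe1 are shown because the pair was at low level in these cells and Hspe1 among the highest members. Each run holds the 250 bases before the start site, 5′ to 3′ on the gene's strand, from RefSeq (GRCm38.p6, the assembly of mm10). Capitals mark matches to GAANNTTC or TTCNNGAA, which read the same on both strands.
Hspa1a, chr17:34972157-34972406, minus strand: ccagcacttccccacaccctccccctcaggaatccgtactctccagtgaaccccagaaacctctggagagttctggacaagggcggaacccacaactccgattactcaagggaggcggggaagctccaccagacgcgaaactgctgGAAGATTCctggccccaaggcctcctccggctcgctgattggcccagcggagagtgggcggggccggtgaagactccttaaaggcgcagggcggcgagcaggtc
Hspa1b, chr17:34959239-34959488, minus strand: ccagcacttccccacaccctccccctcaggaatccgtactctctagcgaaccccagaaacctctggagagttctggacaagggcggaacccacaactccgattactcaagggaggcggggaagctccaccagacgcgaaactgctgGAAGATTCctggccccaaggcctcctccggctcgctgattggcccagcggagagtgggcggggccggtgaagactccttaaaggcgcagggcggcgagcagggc
Hspe1, chr1:55087898-55088147, plus strand: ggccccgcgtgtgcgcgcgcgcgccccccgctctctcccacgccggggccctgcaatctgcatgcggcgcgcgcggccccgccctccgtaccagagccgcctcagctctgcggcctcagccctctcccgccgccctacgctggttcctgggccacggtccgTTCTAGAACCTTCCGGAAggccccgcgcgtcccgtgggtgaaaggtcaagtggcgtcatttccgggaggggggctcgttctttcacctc

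The Hspa1a and Hspa1b runs were identical at 247 of 250 bases. Counted from 1 at the 5′ end of the run, with the Hspa1a base first, they differed by C44T, T47C and T249G. Each held 1 match, GAAGATTC, which ended 96 bases before the start site. Hspe1 held 3 overlapping matches. Hspd1, the neighbouring gene on the opposite strand, has 2 start sites in the table: the upstream window of 1 covers 215 of the 250 Hspe1 bases and holds 3 matches, and that of the other, which adjoins the start of the gene as annotated, covers 0 of them and holds 0 matches. Of the 83 members, 68 had an entry in the promoter table, with 87 start sites in all. GAANNTTC or TTCNNGAA was found at 19 of these 87 (21.8%) and at 12.8% of all 32851 promoters of the table. The longer GAANNTTCNNGAA, searched on both strands as itself or as TTCNNGAANNTTC, always contains the shorter ones. It was found at 4 of the 87 member promoters, 1 of Hspd1, that of Hspe1 and 2 of Dnajb6, and at 0.466% of all promoters. These 4 are not separate sites: the Hspd1 and Hspe1 windows share their matches, and the 2 Dnajb6 windows overlap and share theirs. Windows of nearby start sites overlap, so both member counts are of start sites and hold some matches more than once. A match is a string of letters and was not tested as a binding site. A relation of matches to level was not tested either, and the printed runs do not show one. Among other members, Cct8 and Dnaja2, at high level, held 0 matches. Dnaja1, also high, held 1 at 1 of its start sites, and Hspb1, at low level, held 2. Hsp90aa1, Hspa8 and Hsp90ab1, the 3 highest members, had no entry in the promoter table.

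Expression was measured by SC3-seq, which reads the 3′ ends of polyadenylated RNA, and is given in RPM (the number of reads scaled to a fixed total on genes). Because each RNA gives reads at its end alone, the levels were not divided by gene length. The estimated depth was 2.00 M to 6.04 M reads per cell, and 7088 to 10768 genes had at least 1 read. The germline genes Ddx4 (781 to 986 RPM as line means) and Dazl (3285 to 3521 RPM) were at high level in every line. Of the other germline stem cell markers, Gfra1, Ret, Zbtb16, Etv5 and Sall4 had line means of 55.9 to 319 RPM. Id4 was lower (20.1 to 37.6 RPM) and Lin28a near the floor (1.14 to 5.56 RPM). For 4 of 7 spermatid genes, Prm1, Prm2, Tnp2 and Acrv1, the level was 0 in every cell. Of the other spermatid genes, Acr and Tnp1 had line means of 0 to 4.24 RPM and Spaca1 of 4.71 to 8.65 RPM. One GSC1 cell had 5548 genes with a read and 52929 RPM over 10 fibroblast and feeder cell markers. It stands apart from the other cells and was left out, which leaves 29 cells of GSC1. Counts over all cells refer to the cells that remain. Those markers summed to 314 and 514 RPM in GSCLC1 and GSCLC4, against 1132 and 761 RPM in GSC1 and GSC2. In every line Lgals1, S100a6, Vim and Fn1 were the highest of them. S100a6 was lower in GSCLC (log2 difference -1.79 ± 0.27 SE, adjusted p = 0.0386 by limma). Of 7 tested markers 1 had a positive sign, Fn1 (0.25). The collagen genes were low, with line means of 10.5 to 23.2 RPM for Col1a1, 0 to 1.34 RPM for Col1a2 and 0 to 0.0456 RPM for Col3a1. Whether the sum reflects feeder cells, and the part of these markers in any result, was not tested.

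The 83 genes together took 2.10% and 2.15% of the reads on genes in GSCLC1 and GSCLC4, against 1.91% and 1.90% in GSC1 and GSC2. Levels ran over more than 3 orders of size. As a mean of the 4 line means, 5 members were at 1000 RPM or above, 24 between 100 and 1000 RPM, 19 between 20 and 100, 15 between 5 and 20, 8 between 1 and 5, and 12 below 1 RPM. The 5 highest were Hsp90aa1, Hspa8, Hsp90ab1, Hspe1 and Cct8, which held 52.1% of the summed signal, and Hsp90aa1 ranked 14th of all genes. At least 5 RPM was found in every cell for 17 members, in 80% of cells or more for 34, and in no cell for 8.

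**Figure D1:**
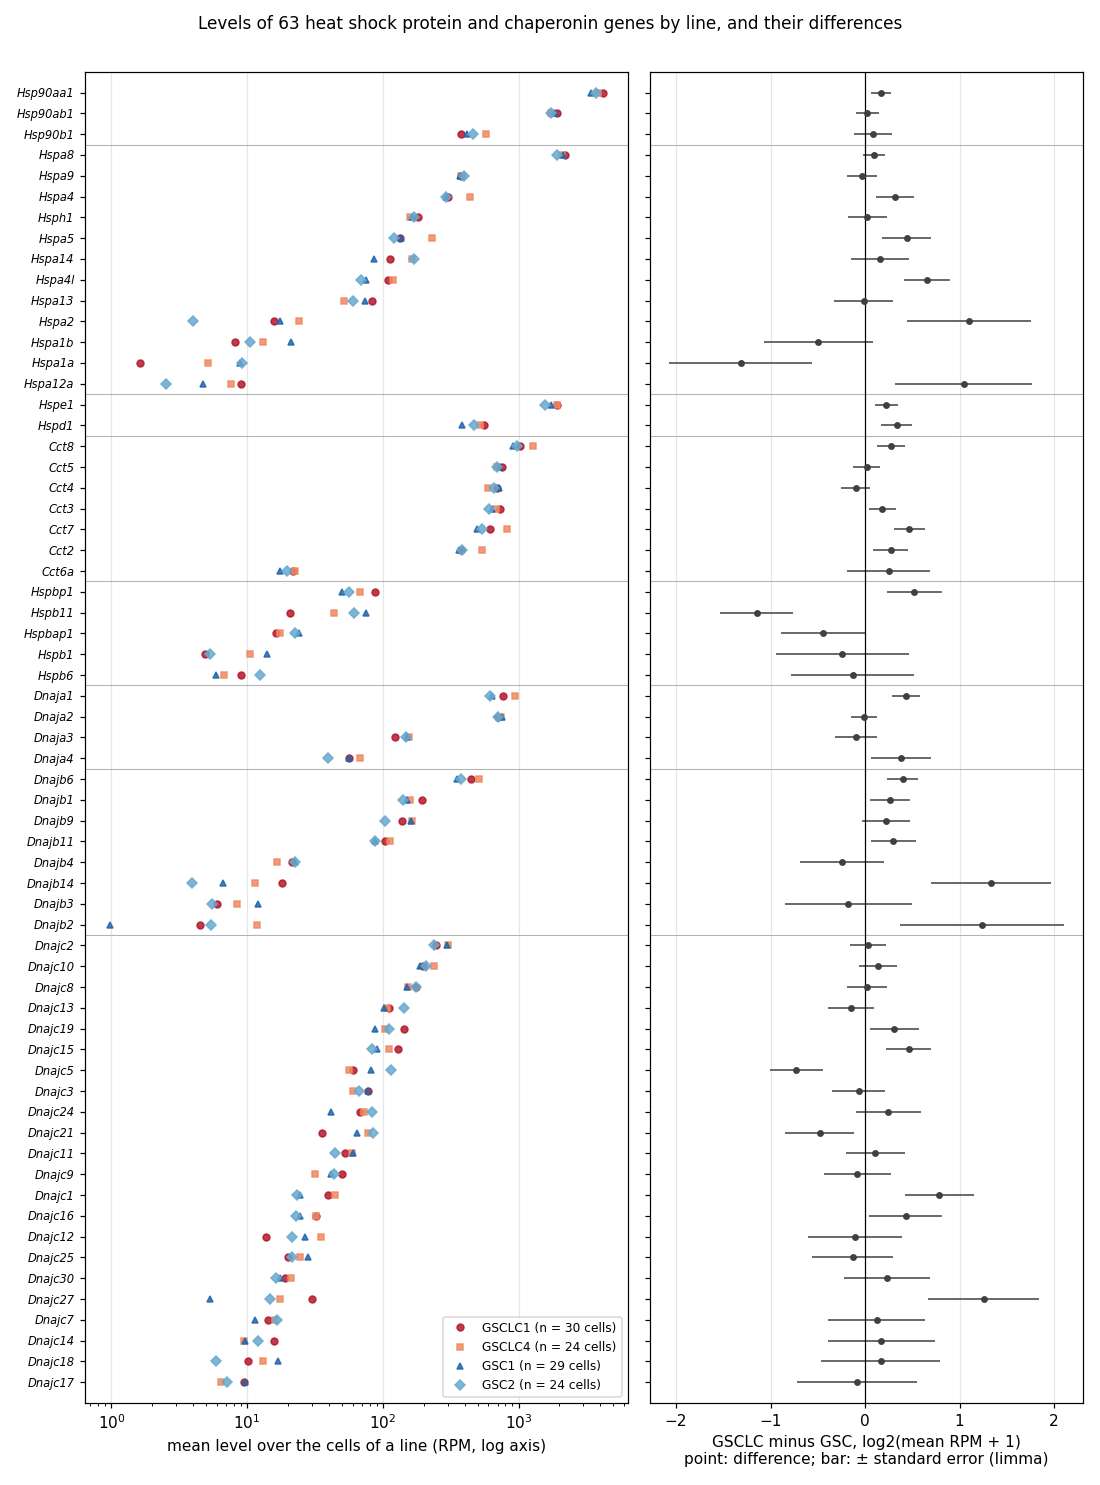
The left panel shows the mean RPM in each of the 4 lines (log axis) of the 63 members that were tested, grouped by family, and the right panel their GSCLC minus GSC difference in log2(mean RPM + 1) with its standard error. In the left panel Hsp90aa1, at 3412 to 4187 RPM, is the highest gene in every line, and in the right panel the bars of Hspa1a and Dnajb14 (standard errors 0.76 and 0.63) are wider than those of Hsp90aa1 and Hspa8 (0.11 and 0.12).

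The comparison of GSCLC with GSC asked whether cells grown from pluripotent cells hold the same chaperones as cells taken from testes. The test was limma with a mean-variance trend on log2(line mean RPM + 1), over the 10519 genes that reached 5 RPM as the mean of 2 or more lines, with Benjamini-Hochberg adjustment at 0.05. Of the 83 members 63 passed that filter, and 0 of the 63 were past the threshold, where 0.0951% of all tested genes were (10 of 10519). Adjusted p in this limma fit ran from 0.438 (Hspb11) to 0.995 (Hspa13). At an unadjusted p under 0.05 there were 6 members, against 8.93% of all tested genes.

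The differences were more often positive than negative and ran from -1.32 (Hspa1a) to 1.33 (Dnajb14) on the log2 scale. Both GSCLC line means lay above both GSC line means for 21 of 63 members (33.3%), against 21.4% of all tested genes, and below both for 5 members (7.94%), against 17.6%. The median log2 difference was 0.16 over the 63 members and 0.03 over all tested genes, and 42 of 63 members had a positive sign, against 52.8% of all tested genes. GSCLC1 was the highest of the 4 lines for 20 members and GSCLC4 for 22, against 12 for GSC1 and 9 for GSC2. The highest line was not counted over all tested genes, so nothing particular to the members can be read from that. These counts describe 4 cultures, and genes of 1 culture are not independent.

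The stress-inducible list held 9 genes, of which 8 were tested. Their median log2 difference was -0.11 (all tested genes 0.03), with 4 of 8 positive. The sign of that median changed with the filter, with the summary over cells and without GSCLC1 (0.018), GSCLC4 (0.027) or GSC1 (0.050). The 9 genes summed to 4654 and 4275 RPM in GSCLC1 and GSCLC4, against 3850 and 4126 RPM in GSC1 and GSC2. Without Hsp90aa1 the sum was 468 and 433 RPM in GSCLC1 and GSCLC4, against 437 and 398 RPM in GSC1 and GSC2. The inducible Hsp70 genes Hspa1a (chromosome 17, 34969359 to 34972156) and Hspa1b (chromosome 17, 34956429 to 34959238) were low in all 4 lines. Hspa1b averaged 8.13 and 13.2 RPM in GSCLC1 and GSCLC4, against 21.2 and 10.5 RPM in GSC1 and GSC2. Hspa1a averaged 1.63 and 5.16 RPM in GSCLC1 and GSCLC4, against 8.89 and 9.17 RPM in GSC1 and GSC2. The 2 GSCLC means of Hspa1a lay below both GSC means, while those of Hspa1b overlapped with them. The log2 difference was -1.32 ± 0.76 (SE) for Hspa1a and -0.49 ± 0.58 for Hspa1b (adjusted p = 0.655 and 0.865 by limma). Summed, the pair came to 0.444% and 0.873% of the level of Hspa8, the constitutive Hsp70, in GSCLC1 and GSCLC4, against 1.42% and 1.03% in GSC1 and GSC2. Of their values above 0, 79.5% for Hspa1a and 78.3% for Hspa1b were whole reads within 0.05 read, and the split between such close copies is uncertain. The last 500 bases of the transcripts in GENCODE's annotation share 0 of 471 stretches of 30 bases, while 64.1% of such stretches of the whole Hspa1a transcript occur in Hspa1b.

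These low means came from few cells. In GSCLC1 and GSCLC4, 7 of 30 and 11 of 24 cells had at least 5 RPM of Hspa1a or Hspa1b, against 10 of 29 and 8 of 24 cells in GSC1 and GSC2. Over all lines these were 36 cells (33.6%), of which 6 had both genes at that level, and 58 cells held less than 1 RPM of the pair together. The highest cell had 97.2 RPM in GSCLC1 and 82.6 RPM in GSCLC4, against 196 RPM in GSC1 and 103 RPM in GSC2. No cell approached its own Hspa8: the highest ratio of the pair to Hspa8 was 0.154, in a GSC1 cell. Within lines the pair had a median rank correlation over cells of -0.01 with the summed immediate early genes, which respond within minutes to stimuli and handling, of -0.04 with the feeder cell markers and of -0.12 with depth. Immediate early genes themselves summed to 454 and 368 RPM in GSCLC1 and GSCLC4, against 634 and 584 RPM in GSC1 and GSC2. Of 5820 genes ranked by their median rank correlation with the pair over the 4 lines, Racgap1 (0.50), a gene of cell division, and Nusap1 (0.40), a gene of the mitotic spindle, came first, and in GSC2 both values were below 0 (-0.25 and -0.15). The first of so many ranked genes stand high by the ranking itself, and the pair was under 1 RPM in 58 cells. A link between the pair and these genes was not tested.

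Of the other inducible genes, Hsp90aa1, Hsph1, Dnajb1 and Dnaja4 stood higher than the pair in every line. Hsp90aa1, the inducible form of cytosolic Hsp90, was the highest of all 83 members. It averaged 4187 and 3842 RPM in GSCLC1 and GSCLC4, against 3412 and 3728 RPM in GSC1 and GSC2, so that both GSCLC lines lay above both GSC lines. Its log2 difference was 0.17 ± 0.11 (SE; adjusted p = 0.69 by limma). Hsph1, an Hsp110 protein, averaged 181.2 and 159.04 RPM in GSCLC1 and GSCLC4, against 163.7 and 170.4 RPM in GSC1 and GSC2, and its values in single cells of the 4 lines ran from 0.277 to 656 RPM. Dnajb1, the J-domain partner of inducible Hsp70, averaged 194 and 158.97 RPM in the GSCLC lines, against 150.8 and 141.2 RPM in the GSC lines (log2 difference 0.27 ± 0.21 SE). Dnaja4 and Dnajb4, J-domain genes of the same response, stood lower, with line means of 39.3 to 67.6 RPM and of 16.5 to 22.6 RPM. So in every line Hspa1a and Hspa1b were low, Hsph1 and Dnajb1 intermediate and Hsp90aa1 high, while Hspb1 and Hspb8 of the same list were low as well. A cell held a median of 4 and 5 of the 9 inducible genes at 5 RPM or more in GSCLC1 and GSCLC4, against 5 and 4 in GSC1 and GSC2.

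Small heat shock proteins bind unfolding chains without ATP. The 7 with an Hspb symbol were near the floor, and only Hspb1 and Hspb6 of them passed the filter. Hspb1 averaged 4.88 and 10.4 RPM in GSCLC1 and GSCLC4, against 13.9 and 5.3 RPM in GSC1 and GSC2, and 19 cells in all had at least 5 RPM. Hspb6 averaged 9 and 6.75 RPM in GSCLC1 and GSCLC4, against 5.91 and 12.4 RPM in GSC1 and GSC2. Hspb8, which works with Bag3 in selective autophagy, reached 5 RPM in 2 cells, both of GSCLC4. Cryab, a small heat shock protein that the symbol rule does not take, stood higher in the GSC lines: it averaged 10.9 and 6.13 RPM in GSCLC1 and GSCLC4, against 49.7 and 23.2 RPM in GSC1 and GSC2. Both GSCLC means lay below both GSC means, and the log2 difference was -1.92 ± 0.54 (SE; unadjusted p = 0.00381, adjusted p = 0.348 by limma). The GSC1 value of the 7 genes rests on part of that line. By the serial numbers in the titles its cells form 2 runs, and the 7 genes summed to 0.41 RPM in the 13 cells numbered 65 to 80 and to 36.4 RPM in the 16 cells numbered 129 to 150. A few cells carry the second mean: the median of those 16 cells was 3.51 RPM, and the mean without the highest cell (238 RPM) was 22.9 RPM. The feeder cell markers also differed between those runs (691 and 1491 RPM), and their part in the difference was not tested. The other lines have 1 run each, so that line and run cannot be told apart there.

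**Figure D2:**
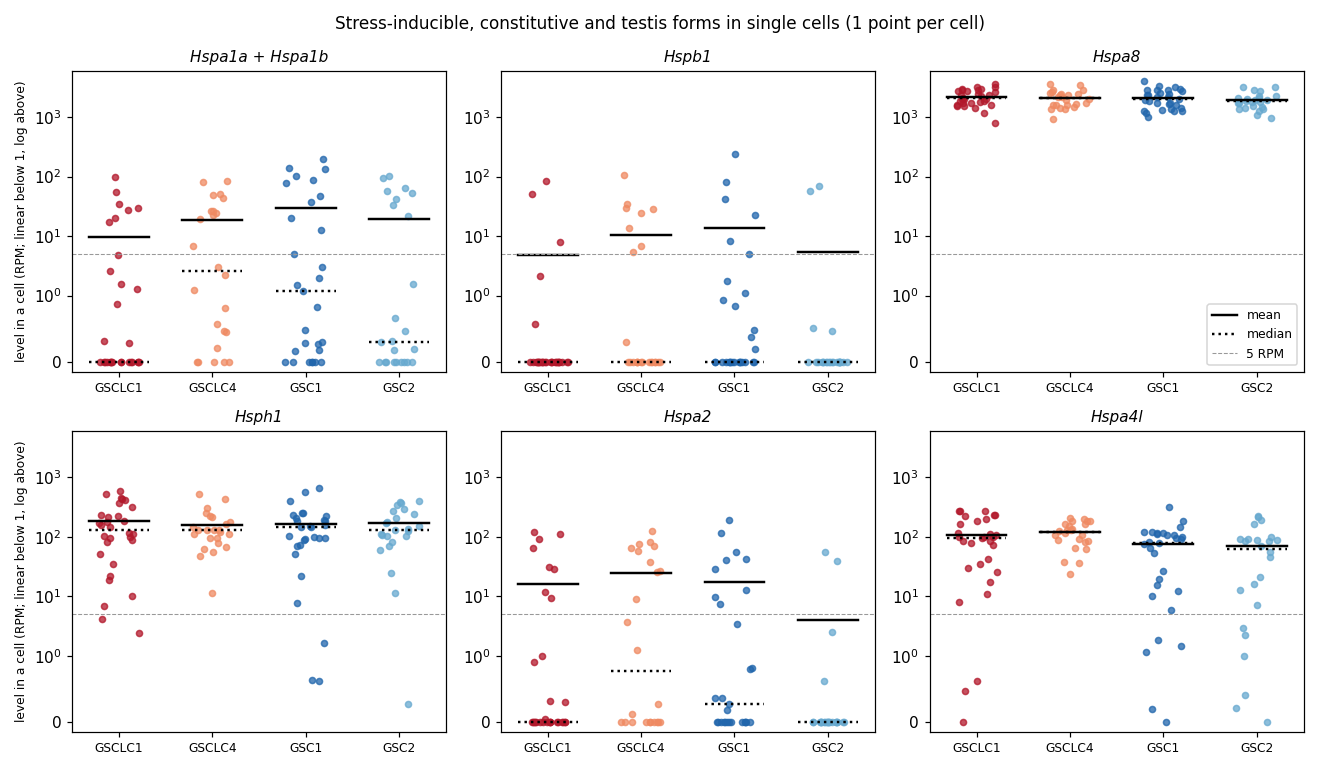
Each point is 1 cell, in columns for GSCLC1, GSCLC4, GSC1 and GSC2, with RPM on an axis that is linear below 1 and logarithmic above; bars mark the mean and the median, and the dashed line 5 RPM. Hspa1a plus Hspa1b, Hspb1 and Hspa2 have most cells at or near 0 and a few up to about 200 RPM, while every cell lies above 800 RPM for Hspa8.

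Constitutive forms of the cytosol summed to 6556 and 6699 RPM in GSCLC1 and GSCLC4, against 6147 and 5875 RPM in GSC1 and GSC2. The 9 genes of that list were tested, 8 had a positive log2 difference (52.8% of all tested genes) and the median was 0.16 (all tested genes 0.03). That median was 0.34 without GSCLC1, 0.10 without GSCLC4, 0.38 without GSC2 and 0.32 with medians over cells. Hspa8 (chromosome 9, 40801276 to 40805202) averaged 2199 and 2101 RPM in GSCLC1 and GSCLC4, against 2115 and 1912 RPM in GSC1 and GSC2, and the groups overlapped. The lowest, median and highest cells had 806, 2062 and 3588 RPM in GSCLC1 and 919, 2069 and 3616 RPM in GSCLC4. In GSC1 they had 992, 2000.0 and 4096 RPM and in GSC2 968, 1830 and 3256 RPM. These ranges cover each other almost fully, and the log2 difference of the line means was 0.10 ± 0.12 (SE). Hsp90ab1, the constitutive cytosolic Hsp90, averaged 1923 and 1723 RPM in the GSCLC lines, against 1853 and 1729.6 RPM in the GSC lines (log2 difference 0.02 ± 0.12). The inducible form was thus above the constitutive one: Hsp90aa1 over Hsp90ab1 came to 2.18 and 2.23 in GSCLC1 and GSCLC4, against 1.84 and 2.16 in GSC1 and GSC2. It exceeded 1 in 29 of 30 and 24 of 24 cells of GSCLC1 and GSCLC4, against 26 of 29 and 22 of 24 cells of GSC1 and GSC2. Only 43.9% of the Hsp90aa1 values and 52.3% of the Hspa8 values were whole reads, while 94.4% were whole for Hsp90ab1. Whether reads were shared between genes in these levels was not tested.

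The J-domain partners of the cytosol differed in how they sat between the lines. Dnaja1 averaged 765 and 933 RPM in GSCLC1 and GSCLC4, against 638 and 616 RPM in GSC1 and GSC2, and both GSCLC lines were above both GSC lines. Its log2 difference was 0.43 ± 0.15 (SE; unadjusted p = 0.0139, adjusted p = 0.462 by limma). Its close relative Dnaja2 averaged 704 and 739 RPM in GSCLC1 and GSCLC4, against 749.5 and 705 RPM in GSC1 and GSC2, with a log2 difference of -0.01 ± 0.14. As a ratio, Dnaja1 over Dnaja2 was 1.09 and 1.26 in the GSCLC lines, against 0.851 and 0.874 in the GSC lines. Dnajb6, which holds back the aggregation of glutamine-rich chains, averaged 448 and 515 RPM in the GSCLC lines, against 349.8 and 378 RPM in the GSC lines (log2 difference 0.40 ± 0.16, adjusted p = 0.518 by limma). Of the nucleotide exchange factors, Hspa4 had 303 and 442 RPM in GSCLC1 and GSCLC4, against 293 and 292 RPM in GSC1 and GSC2, and Hspbp1 had 87.9 and 67.9 RPM in the GSCLC lines, against 50.3 and 56.8 RPM in the GSC lines. Neither passed the threshold (adjusted p = 0.684 and 0.635).

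The testis list held 12 genes, and 3 of them were tested: Hspa4l, Hspa2 and Dnajb3. Hspa4l, an Hsp110 protein that is abundant in the testis, was the highest. It averaged 108.98 and 119.2 RPM in GSCLC1 and GSCLC4, against 74.8 and 69.3 RPM in GSC1 and GSC2. Both GSCLC lines were above both GSC lines, and the log2 difference was 0.65 ± 0.25 (SE; unadjusted p = 0.0208, adjusted p = 0.484 by limma). At least 5 RPM was found in 27 of 30 and 24 of 24 cells of GSCLC1 and GSCLC4, against 24 of 29 and 18 of 24 cells of GSC1 and GSC2. Hspa2, the Hsp70 of meiotic germ cells, averaged 15.9 and 24.2 RPM in GSCLC1 and GSCLC4, against 17.5 and 4.03 RPM in GSC1 and GSC2. GSC2 was low and the other lines overlapped, with 8 of 30 and 10 of 24 cells at 5 RPM or more in the GSCLC lines, against 9 of 29 and 2 of 24 in the GSC lines. Its log2 difference of 1.10 ± 0.66 (adjusted p = 0.661 by limma) was 0.16 without GSC2. Dnajb3, a J-domain gene of spermatogenic cells, averaged 6.05 and 8.36 RPM in the GSCLC lines, against 12 and 5.51 RPM in the GSC lines.

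The later testis forms were at the floor. Hspa1l, the Hsp70 of spermatids, averaged 1.88 and 2.07 RPM in GSCLC1 and GSCLC4, against 6.26 and 0.848 RPM in GSC1 and GSC2, and 8 cells in all had at least 5 RPM. Its 76.2% of whole values leave its split from Hspa1a and Hspa1b, next to which it lies, uncertain. Dnajc5g, a testis form of the cysteine string protein, was the exception among them in GSC2: it averaged 0.0545 and 4.05 RPM in GSCLC1 and GSCLC4, against 1.72 and 11.54 RPM in GSC1 and GSC2. Cct6b, the testis form of a CCT subunit, reached 5 RPM in 2 cells, both of GSCLC4. Hspb9, Dnajb7, Dnajb8, Dnajb13, Dnajc5b and Cct8l1 reached 5 RPM in no cell. In a line, 0 cells allow a share of up to 10% (GSCLC1) to 12.5% (GSCLC4 and GSC2) of cells at that level by counting error alone, which is no limit on cells that express the gene. Some genes that mark meiosis were present beside these forms: 6 of them summed to 314 and 448 RPM in GSCLC1 and GSCLC4, against 269 and 284 RPM in GSC1 and GSC2. Most of that sum came from Sycp1, Sycp3 and Hormad1, with line means of 46.1 to 165.9 RPM. Dmc1 was lower (13.7 to 21.3 RPM), and Stra8 (2.79 to 8.82 RPM) and Spo11 (0.0158 to 1.90 RPM) were near the floor. The part of these genes in the level of Hspa2 was not tested.

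Of the chaperones of the endoplasmic reticulum, all 8 genes of the list were tested, 6 of 8 were positive (52.8% of all tested genes) and the median log2 difference was 0.18. That median was 0.35 without GSCLC1 and 0.11 without GSCLC4. Hsp90b1, the Hsp90 of this compartment, stood above Hspa5, its Hsp70 (also called BiP), and the ratio of Hspa5 to Hsp90b1 was 0.354 and 0.396 in GSCLC1 and GSCLC4, against 0.326 and 0.26 in GSC1 and GSC2. Hsp90b1 averaged 375 and 579 RPM in GSCLC1 and GSCLC4, against 418 and 464 RPM in GSC1 and GSC2. Hspa5 averaged 132.8 and 229 RPM in the GSCLC lines, against 136.3 and 120.8 RPM in the GSC lines. In both genes GSCLC4 stood apart while GSCLC1 lay among or below the GSC lines. The log2 difference of Hspa5 was 0.44 ± 0.26 (SE; adjusted p = 0.661 by limma) and 0.05 without GSCLC4. Dnajc1, a J-domain protein of the membrane, had 39.8 and 44.3 RPM in the GSCLC lines, against 24.7 and 23.2 RPM in the GSC lines, with a log2 difference of 0.79 ± 0.37 (adjusted p = 0.566). The J-domain genes Dnajb11 (87.7 to 113.7 RPM), Dnajb9 (103 to 162.9 RPM) and Dnajc10 (188 to 239 RPM) had line means in these ranges.

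Both mitochondrial chaperonin genes were higher in each GSCLC line than in either GSC line, as were 21.4% of all tested genes, and neither passed the threshold. Hspe1 (chromosome 1, 55088148 to 55091317) averaged 1927 and 1914 RPM in GSCLC1 and GSCLC4, against 1720.1 and 1565 RPM in GSC1 and GSC2. Hspd1 (chromosome 1, 55077833 to 55088243) averaged 559 and 516 RPM in GSCLC1 and GSCLC4, against 383 and 472 RPM in GSC1 and GSC2. The log2 differences were 0.23 ± 0.12 (SE; adjusted p = 0.62) and 0.33 ± 0.16 (adjusted p = 0.589 by limma). The lid gene was higher than the chamber gene in every cell, by 3.45 and 3.71 times as line means in the GSCLC lines, against 4.49 and 3.32 times in the GSC lines. Hspa9, the mitochondrial Hsp70, was level across the lines with 378 and 373 RPM in GSCLC1 and GSCLC4, against 371 and 397 RPM in GSC1 and GSC2. Of its J-domain partners, Dnajc15 had 129 and 110.2 RPM in the GSCLC lines, against 90.0 and 82.6 RPM in the GSC lines, and Dnaja3 had 123 and 156.7 RPM in the GSCLC lines, against 149.7 and 148 RPM in the GSC lines. The list of 8 had a median log2 difference of 0.23 with 6 of 8 positive.

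Each CCT ring is built from different subunits in equal number, and the RNA levels of their genes were not equal. Cct8 was the highest with 1022 and 1268 RPM in GSCLC1 and GSCLC4, against 908 and 976 RPM in GSC1 and GSC2. Cct3, Cct4, Cct5 and Cct7 had line means between 497 and 828 RPM, and Cct2 between 362 and 537 RPM. Cct6a was far below them with 21.9 and 22.7 RPM in GSCLC1 and GSCLC4, against 17.6 and 19.7 RPM in GSC1 and GSC2. Of the summed RPM of the 7 genes and Tcp1, the remaining subunit, Cct8 took 22.6% to 26.3%, Tcp1 3.38% to 4.38% and Cct6a 0.439% to 0.503%. These shares come from 3′-end reads and are not shares of protein. Between cells, the ratio of SD to mean of Cct6a (0.625) was below those of all 11 spike-in RNAs of like level. Whether the reads counted for Cct6a cover all of its RNA was not tested. Cct7 had the lowest p of the subunits: it averaged 617 and 828 RPM in the GSCLC lines, against 497 and 535 RPM in the GSC lines (log2 difference 0.47 ± 0.17 SE, adjusted p = 0.477 by limma). Cct4 had the opposite sign (-0.10 ± 0.15), with 692 and 591 RPM in GSCLC1 and GSCLC4, against 712 and 659 RPM in GSC1 and GSC2. The 7 genes had a median log2 difference of 0.25, with 6 of 7 positive, against 52.8% of all tested genes, and 4 of 7 higher in each GSCLC line than in either GSC line, against 21.4% of all tested genes. Without GSCLC4 the median was 0.12.

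**Figure D3:**
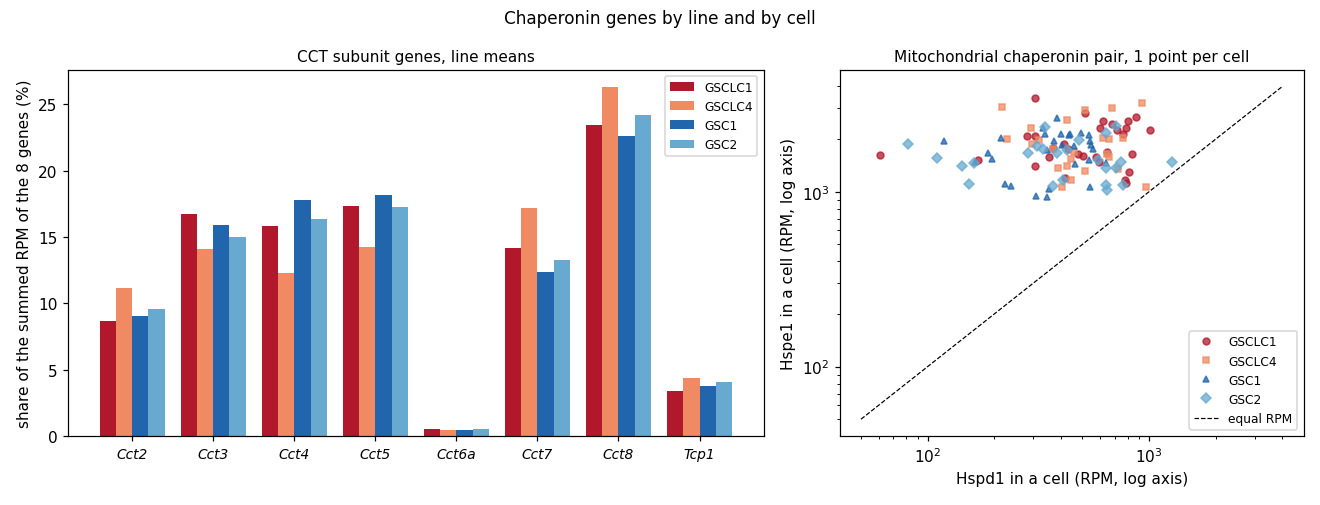
The left panel gives the share of each gene in the summed RPM of 8 CCT subunit genes in GSCLC1, GSCLC4, GSC1 and GSC2, from line means; the right panel plots Hspe1 against Hspd1 in single cells on log axes, with a line of equal RPM. Cct8 is the highest and Cct6a the lowest bar in all 4 lines, and every cell lies above the line of equal RPM.

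The remaining members were mostly J-domain genes of narrower tasks, and the largest differences were found among those at low level. Dnajb14, of the endoplasmic reticulum membrane, averaged 18.1 and 11.45 RPM in GSCLC1 and GSCLC4, against 6.64 and 3.9 RPM in GSC1 and GSC2. Dnajc27, which joins a J domain to a Rab-like GTPase, averaged 30.1 and 17.6 RPM in the GSCLC lines, against 5.36 and 14.9 RPM in the GSC lines. Their log2 differences were 1.33 ± 0.63 and 1.26 ± 0.59 (SE; adjusted p = 0.569 and 0.565 by limma). They rest on 21 and 39 cells with at least 5 RPM. In the other direction, Hspb11 averaged 20.7 and 43.9 RPM in GSCLC1 and GSCLC4, against 75.7 and 61.2 RPM in GSC1 and GSC2. It had the lowest p of all members (log2 difference -1.15 ± 0.39, unadjusted p = 0.0116, adjusted p = 0.438). Dnajc5, the cysteine string protein of secretory vesicles, averaged 60.4 and 56.4 RPM in GSCLC1 and GSCLC4, against 81.8 and 115.6 RPM in GSC1 and GSC2 (log2 difference -0.73 ± 0.28, adjusted p = 0.49). In Hspb11 and Dnajc5 both GSCLC lines lay below both GSC lines, as they did in Hspa1a, Hspbap1 and Dnajb4. Dnajc2, which works at the ribosome (239 to 301 RPM), and Dnajc8, of the spliceosome (150.3 to 176.1 RPM), were the highest Dnajc genes with Dnajc10 and had log2 differences of 0.03 and 0.02.

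Between the cells of a line, members varied about as much as other genes of their level. The ratio of SD to mean between cells had a median of 0.274 over the 5 members from 1000 to 5000 RPM, against 0.191 over 2 spike-in RNAs and 0.273 over the genes of that range. From 100 to 400 RPM it was 0.748 over 14 members, against 0.551 over 9 spike-ins and 0.689 over 1931 genes. From 20 to 100 RPM it was 1.14 over 19 members, against 1.28 over 11 spike-ins and 1.18 over 4713 genes. In that last range the members' median lay below that of RNA added to every lysate, and above it in the higher ranges. Cct6a stood out: its ratio of 0.625 at about 20 RPM was below those of all 11 spike-ins and of the 18 other members of the range, and 68 of 4713 genes were lower. It had at least 5 RPM in 99 cells, against 53 cells for Dnajb4 at a like mean level. Cct6a was singled out after its values were seen.

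**Figure D4:**
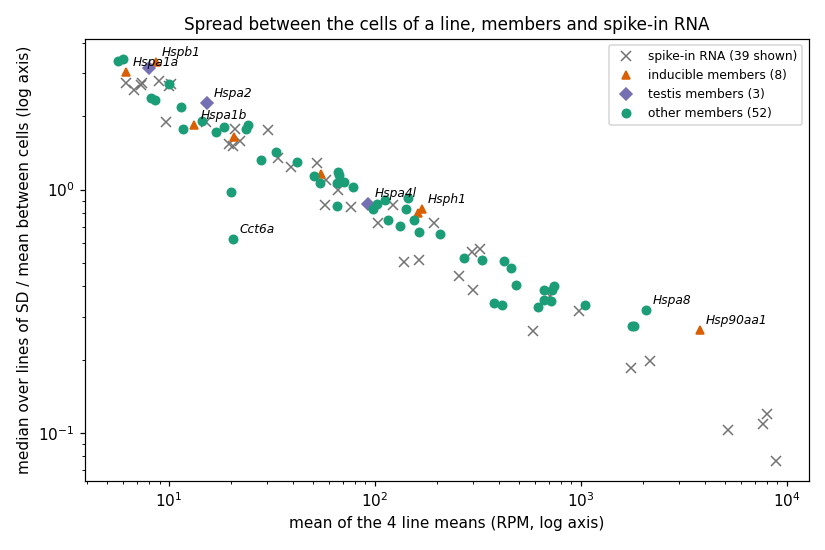
Each point is a gene or a spike-in RNA with a mean of at least 5 RPM, with its mean level on the x axis and the median over the 4 lines of SD over mean between cells on the y axis (both log). Inducible and testis members follow the same falling band as the other members and the spike-ins, and Cct6a lies below the band.

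From cell to cell the members varied together weakly. Over the 66 pairs of the 12 highest members the rank correlation between cells, taken as the median of the 4 lines, had a median of 0.10 and ran from -0.13 to 0.37, with 50 pairs positive. For the 21 pairs of the 7 CCT genes the median was 0.09, with a range of -0.07 to 0.36. The sum of Hspa1a and Hspa1b against the summed inducible list without Hsp90aa1, which holds the pair itself, gave values from -0.04 in GSCLC1 to 0.52 in GSCLC4. All values of a cell share its scaling to RPM and its depth, and counting noise lowers correlations of low genes, so these are descriptions.

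Other genes of the same pathways, from lists of their own, gave 0 calls as well, where 0.0951% of all tested genes were called. Among all tested genes 52.8% were positive, with a median log2 difference of 0.03. Of 23 heat shock factors and cochaperones 21 were tested, with 13 positive and a median log2 difference of 0.11. The largest difference and the lowest p of that list were those of Cryab, given above, with the opposite sign. Hsf1 itself averaged 14.7 and 17.3 RPM in GSCLC1 and GSCLC4, against 15.8 and 13.6 RPM in GSC1 and GSC2. Hsf2, a relative active in the testis, averaged 22.2 and 58.5 RPM in the GSCLC lines, against 26.99 and 40.7 RPM in the GSC lines. Stip1, which passes clients of Hsp70 on to Hsp90, averaged 178 and 176.6 RPM in GSCLC1 and GSCLC4, against 149.6 and 147.4 RPM in GSC1 and GSC2, and was higher in each GSCLC line than in either GSC line (log2 difference 0.26 ± 0.20 SE, adjusted p = 0.768 by limma). Bag3, an inducible partner of Hsp70, had 2.87 and 11.51 RPM in the GSCLC lines, against 3.36 and 18.4 RPM in the GSC lines. Among 8 genes of a list of Tcp1, the prefoldin subunits and other partners of CCT, 5 were positive with a median of 0.06. Of 14 genes of the unfolded protein response 13 were tested, with 7 positive and a median of 0.08, and its regulator Xbp1 had 91.9 and 73.1 RPM in the GSCLC lines, against 140.5 and 105.6 RPM in the GSC lines (log2 difference -0.57 ± 0.26, adjusted p = 0.559). Of 6 genes of mitochondrial protein quality control 4 were positive with a median of 0.08, and Grpel1, the nucleotide exchange factor of Hspa9, had 139 and 125 RPM in the GSCLC lines, against 103 and 81.1 RPM in the GSC lines (0.53 ± 0.24, adjusted p = 0.559).

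The 2 runs of GSC1 were alike in the summed level of the 83 genes (19057 RPM in the 13 cells numbered 65 to 80 and 19053 RPM in the 16 numbered 129 to 150). With either run alone 0 members were called, and the median log2 difference over the members was 0.24 with the earlier numbers and 0.14 with the later ones. The testis list summed to 77.8 RPM in the earlier and 140 RPM in the later run, and Hspa1a plus Hspa1b to 23.8 and 35.2 RPM. The labels do not say what the runs stand for.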

How the data were processed

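Single cells were profiled by SC3-seq, per the labels' protocols, and the authors deposited 1 table of expression signal in RPM for 26218 genes and 92 ERCC spike-in RNAs. The tools were cutadapt 1.3, TopHat 1.4.1 and Cufflinks 2.2.0 with the build mm10, per the submitters' processing notes; how reads that fit several genes were handled is not stated there. Gene rows were scaled without the spike-ins. The worth of 1 read was taken from the most frequent value of a cell. Whole reads (tolerance 0.05 read) made up 86.8% to 92.5% of the values per cell, too few for a count model. Cells were grouped by the line in their title, and a line was represented by its mean RPM. limma 3.58.1 (R 4.3.3; lmFit and eBayes with trend) compared 2 GSCLC with 2 GSC lines on log2(mean RPM + 1), which understates differences of low genes, with a filter of 5 RPM in 2 lines and Benjamini-Hochberg adjustment. Each adjusted p-value and standard error is taken from it. Nothing in the labels says that lines of a type are independent beyond the notes on GSC2 and GSCLC4, so the p-values measure the spread between these cultures. Shares of cells with at least 5 RPM cover counting error only. On simulated line values (20 draws over 10519 genes) the fit recovered 27.6%, 69.2% and 96.1% of genes changed 2-fold, 4-fold and 16-fold, and 6.14% of its calls were false. Positions come from RefSeq GRCm38.p6, matched by Entrez identifier for all 83 members. The members, the lists and the tests were chosen with earlier results of these data known. The text names the inducible, constitutive, testis and CCT lists, a fixed set of organelle chaperones, the highest members, and those with the largest differences or spread. The alternatives changed the pseudocount, filter, summary of cells, scaling and variance model, took in the left-out GSC1 cell, used each GSC1 run alone or left out a line.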

Additional observations from a re-analysis of the deposited data

Results flagged for a closer look

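In the GSC1 cell that no comparison used, Dnajc30 and Hspbap1 were picked out of the 83 members for standing above the highest of the other cells. The share of all genes that did so in that cell is not given, so nothing particular to the members can be read from it. Dnajc30, a J-domain protein of mitochondria, stood at 152.7 RPM there, above the highest of the other cells (140.003 RPM) and above their median of 0.302 RPM. Hspbap1 stood at 149.4 RPM, above the highest of the other cells (98.9 RPM) and their median of 14.3 RPM. The same cell had 3788 RPM of Hspa8, a level that 1 of the other cells reached, and 0 RPM of Hspa1a, Hspa1b and Dnajb1. It had 1938 RPM of Hsp90aa1, which 103 of the other cells reached or passed. Its feeder cell markers summed to 52929 RPM and its germline genes to 819 RPM. A single cell has no replicate, so these values were not tested.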

How the results depend on the processing

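No member was past the threshold under any of the 15 alternatives by limma, and the lowest adjusted p of a member was 0.112. Of 63 tested members 33 kept their sign in every alternative in which they were fitted (28 positive, 5 negative) and 30 did not. Some low members were not fitted in all 15: Dnajb2 and Hspa12a were fitted in 11. Leaving out the variance trend cannot change a sign. The share over all tested genes is not given, so nothing particular to the members can be read from these counts. No paired analysis was run, as the labels give no pairing of GSC lines with GSCLC lines. The count of all genes past the threshold, 10, was 3 with a pseudocount of 0.1 RPM, 20 with 10 RPM, 0 with no filter (1407 genes at an unadjusted p under 0.05), 21 with a filter of 20 RPM, 1 with medians over cells, 0 without the variance trend (874 genes at an unadjusted p under 0.05), 4 with the GSC1 cells numbered under 129 and 3 with the others; leaving out 1 line gave 3 to 39. Medians of log2 differences moved as follows by more than the spread between lines of a type. All members (0.16): 0.11 with a pseudocount of 10 RPM, 0.11 with no filter, 0.20 with a mean of logs, 0.24 with GSC1 cells under 129, and 0.11 to 0.20 with 1 line left out. Inducible list (-0.11): 0.023 with no filter, 0.17 with a filter of 20 RPM, 0.18 with medians, 0.16 with a mean of logs, 0.20 and 0.021 with GSC1 cells under 129 and from 129, and -0.10 to 0.050 with 1 line left out, so its sign is not fixed. Constitutive list (0.16): 0.24 with a filter of 20 RPM, 0.32 with medians, 0.31 with a mean of logs, 0.26 and 0.38 with the GSC1 runs, and 0.10 to 0.38 with 1 line left out. Testis list (0.65): -0.00885 with no filter, and 0.16 to 0.72 with 1 line left out. Mitochondrial list (0.23): 0.19 with a pseudocount of 10 RPM, 0.29 with medians, 0.30 with a mean of logs, 0.18 with the left-out GSC1 cell, 0.17 with GSC1 cells from 129, and 0.17 to 0.24 with 1 line left out. CCT list (0.25): 0.18 with a pseudocount of 10 RPM, and 0.12 to 0.32 with 1 line left out; ER list (0.18): 0.11 to 0.35. The causes were not tested. Medians in place of means moved the sums per line by less than the SD between cells. That holds for any set of values, so it is no check. For GSC1, taking in the left-out cell or using either run alone also moved the sums by less than its SD. Shares of cells with 10 RPM in place of 5 stayed within the counting error of the shares at 5 RPM. Line means of members under 20 RPM often rest on few cells, and the part of depth in this was not tested.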
